A study of Mus musculus with 12 samples.

Results

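The 8 genes Hp, Lbp, Saa3, C3, Cp, Trf, Ahsg and Lcn2, which encode acute-phase and hepatic plasma proteins, were followed by symbol through a table of RNA levels from EMS404 cells. All 8 of 8 members had a row among the 15720 gene identifiers that were kept. EMS404 is 1 mouse hepatic stellate cell line of C57Bl6 background, immortalized with SV40 and carrying human TLR4, and these features were shared by every group. Stellate cells are the liver's fat-storing pericytes, which turn into matrix-producing myofibroblasts when the liver is injured. The 4 groups, with 3 libraries each, were Bmal1 siRNA with TGFb, scrambled siRNA with TGFb, Bmal1 siRNA with vehicle and scrambled siRNA with vehicle. Cells were transfected, treated 48 h later, and harvested after another 24 h, with TGFb at 10 ng/mL. The labels say nothing of clones or passages. The triplicates are described as biological in the series text, with no word on separate cultures. The p-values therefore rest on the spread of these libraries, part of which may be technical.

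Acute-phase proteins are plasma proteins whose concentration shifts during inflammation, and hepatocytes are their main source. Interleukin-6 acting through STAT3, interleukin-1 acting through NF-kappaB, and the C/EBP transcription factors are the classical drivers of their genes in liver. BMAL1, encoded by Arntl, is the core circadian activator that binds E-boxes together with CLOCK. TGFb drives stellate cells towards the myofibroblast state and signals through Smad proteins.

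The targeted transcript came first as a check of the labels. Arntl stood at 5.05, 4.01 and 4.0 FPKM with Bmal1 siRNA and TGFb, against 10.50, 10.75 and 10.86 FPKM with scrambled siRNA and TGFb. Under vehicle it stood at 3.90, 3.87 and 3.59 FPKM with Bmal1 siRNA and at 5.43, 5.19 and 4.91 FPKM with scrambled siRNA. The siRNA groups did not overlap under either treatment, and the log2 changes were -1.13 (adjusted p = 1.38e-06, limma) with TGFb and -0.37 (adjusted p = 0.0490) with vehicle. The mean with Bmal1 siRNA was thus 40.7% of the scrambled mean under TGFb but 73.2% of it under vehicle. TGFb itself raised Arntl by 0.92 with scrambled siRNA (adjusted p = 6.40e-07, limma) and by 0.16 with Bmal1 siRNA (adjusted p = 0.168, not called). The difference of these effects was -0.77 (adjusted p = 0.000526). FPKM, the unit of all levels here, is fragments per kilobase of transcript scaled to library size, so levels can be compared between genes. Totals ran from 445472 to 483957 FPKM per library. No source used here gives the number of reads. Spacing among low FPKM values put the depth roughly at 29100000 to 30500000 fragments a library, if fragments were 150 bases long. That estimate is weak. It used 80 to 95 genes a library, selected at an assumed depth within that range. Of these, 48.75% to 67.8% lay within 0.15 of a whole count.

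Tests were run with limma on log2(FPKM + 1) for the 11208 genes whose mean over libraries reached 0.5 FPKM. A call needed an adjusted p under 0.05 after Benjamini-Hochberg correction over all of them. Of the 8 members 7 passed that filter. Lcn2, with a mean of 0.469 FPKM, did not. Fold changes on this scale understate those of low genes and shrink as the pseudocount grows. For Hp with TGFb and scrambled siRNA the log2 change was -4.79 with a pseudocount of 0.1 and -1.16 with 5, against -2.72 with 1, and all 3 were called. The exact permutation tests given for single genes are two-sided and compare 3 libraries with 3, so their smallest possible p is 0.1.

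With scrambled siRNA, TGFb lowered the transcripts of all 7 tested members. Their log2 changes ran from -2.72 for Hp to -1.20 for Cp, with a median of -1.96, against a median of -0.05 over all genes tested. Of all genes tested, 29.1% were called lower and 16.4% higher in this comparison. Groups did not overlap and TGFb was lower for 7 of the 8 members, all but Lcn2, and for 34.7% of genes tested. With Bmal1 siRNA, TGFb lowered 6 of the 7, with a median log2 change of -1.40 against 0.0035 over all genes, where 10.1% of genes were called lower and 8.9% higher. Cp was the member not called. Here groups did not overlap for 7 of the 8, all but Cp, and for 17.9% of genes tested in that direction. Bmal1 siRNA left 4 of the 7 higher than scrambled siRNA under TGFb, namely Cp, Lbp, Hp and Ahsg, in a comparison that called 16% of all genes higher and 7.16% lower. The same 4 of 8 had groups that did not overlap, as had 28.1% of genes in that direction. Under vehicle it changed 0 of the 7 by limma, where 0.66% of all genes were called, 0.294% higher and 0.366% lower, and 2433 of 11208 had an unadjusted p under 0.05. Among the members, Hp and Cp had an unadjusted p under 0.05 there, at 0.0162 and 0.0268. Groups did not overlap for 3 of the 8 that were higher, Lbp, Cp and Ahsg, and for 1 that was lower, Hp, against 16.7% and 15.1% of all genes in those directions. The interaction, which tests whether the effect of TGFb differed between siRNAs, was called for Hp and Cp, both positive, and 8.86% of all genes were called positive and 5.52% negative. The share of higher calls among all called genes depended on scaling. It was 36.1% for TGFb with scrambled siRNA, against 45.6% to 49.8% under 3 other scalings. For Bmal1 siRNA under TGFb it was 69.1%, against 44.9% to 58.9%, and for the interaction 61.6%, against 42.1% to 49.4%. For Bmal1 siRNA under vehicle it was 44.6%, against 38.7% to 61.2%. No called member changed direction under these scalings.

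**Figure D1:**
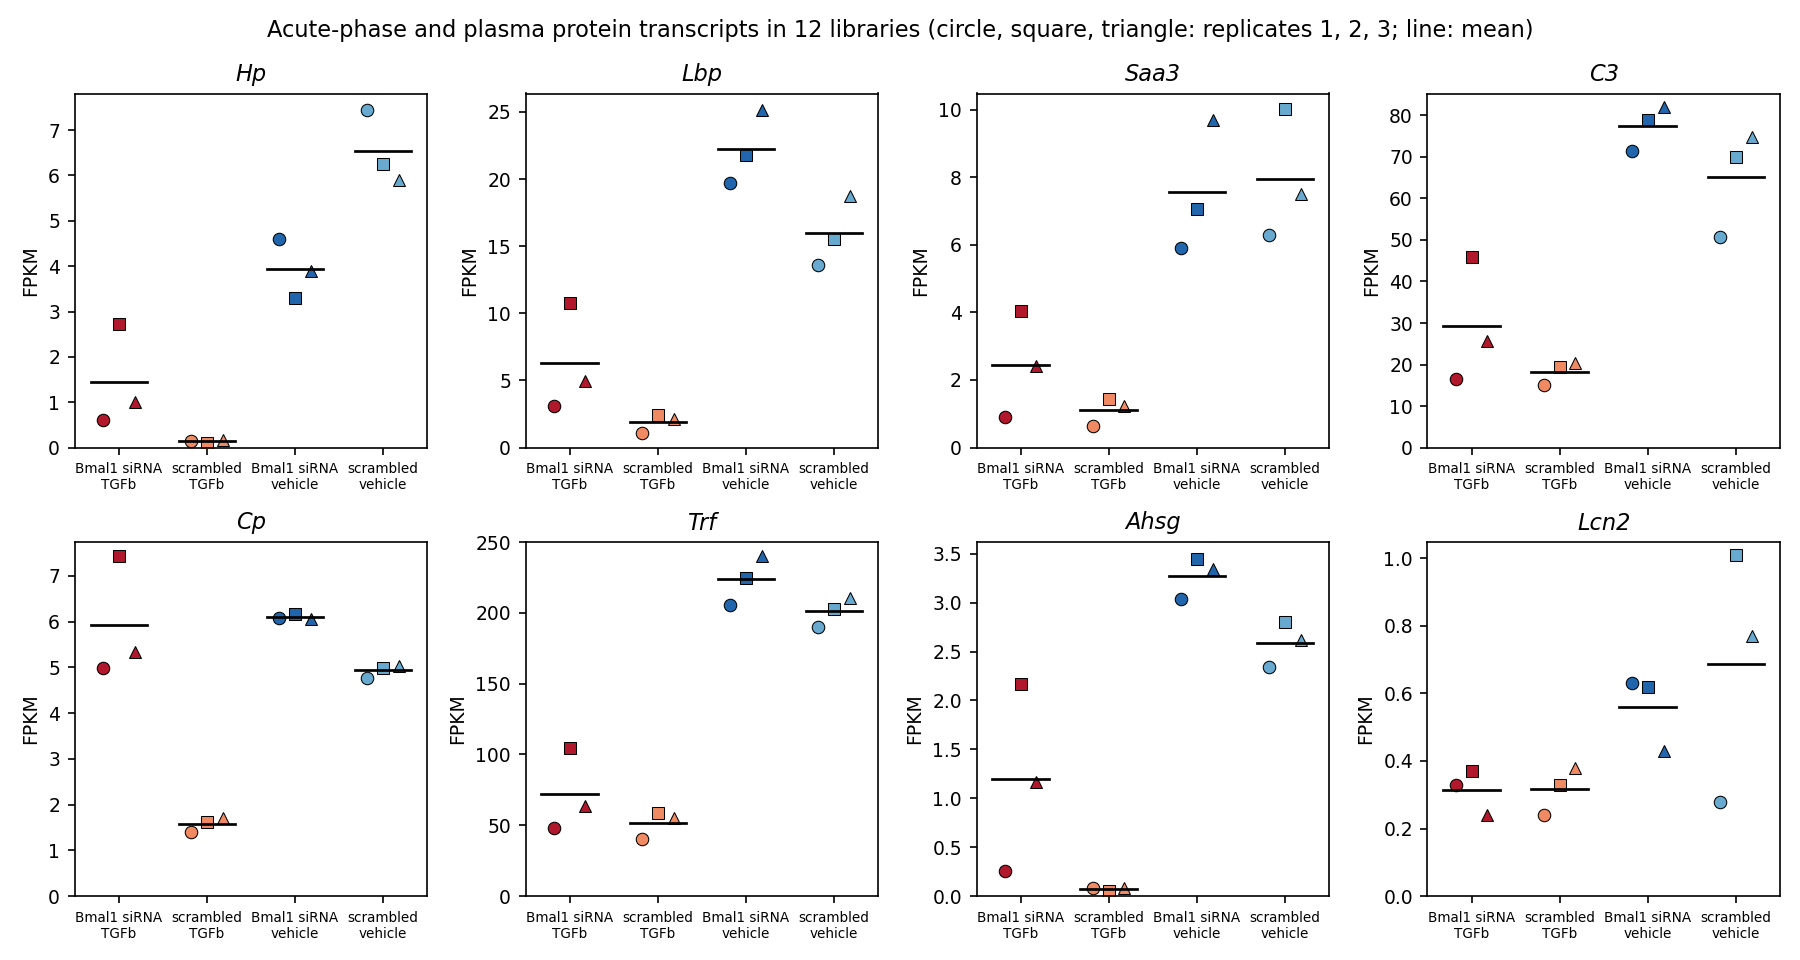
Level of each member in FPKM (vertical axis, linear, from 0) in the 4 groups of 3 libraries (horizontal axis); symbols are replicates 1 to 3 and the black line is the group mean. Hp and Ahsg with scrambled siRNA and TGFb lie at 0.17 FPKM or lower in every library, and the second library with Bmal1 siRNA and TGFb is the highest of its group for all 8 genes.

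The libraries with Bmal1 siRNA and TGFb stood apart from one another. For all 7 tested members the second library was the highest and the first the lowest of the 3, an order that 27.6% of all tested genes had. It was also held by 189 of the 219 genes that TGFb lowered by more than 1 log2 unit with scrambled siRNA, or 86.3%. TGFb targets moved with it. Pmepa1, a feedback inhibitor that TGFb induces, stood at 42.76, 19.24 and 34.89 FPKM in these libraries, against 166.05, 148.60 and 156.14 FPKM with scrambled siRNA and TGFb. Acta2, smooth muscle actin, stood at 185.29, 113.79 and 187.96 FPKM, against 238.82, 239.66 and 241.14 FPKM. The second library was thus the lowest for both induced genes. The part of this library order in the results was not tested. Shifts without the first or the second of these libraries are given beside many of the results they touch, but not all. With each library left out in turn, the TGFb change with Bmal1 siRNA ran from -1.45 to -0.84 for Hp. It ran from -2.22 to -1.46 for Lbp and from -1.86 to -1.15 for C3.

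Haptoglobin, encoded by Hp, binds free haemoglobin in plasma so that its iron is not lost. The gene lies at chr8:109575128-109579172 on the minus strand (mm10). Hp stood at 0.61, 2.72 and 1.01 FPKM with Bmal1 siRNA and TGFb, against 4.60, 3.29 and 3.90 FPKM with Bmal1 siRNA and vehicle. With scrambled siRNA it stood at 0.14, 0.11 and 0.17 FPKM under TGFb, against 7.44, 6.26 and 5.90 FPKM under vehicle. The 4 groups did not overlap at all, and their order from lowest to highest was scrambled siRNA with TGFb, Bmal1 siRNA with TGFb, Bmal1 siRNA with vehicle and scrambled siRNA with vehicle. The mean under TGFb was 36.8% of the vehicle mean with Bmal1 siRNA and 2.14% of it with scrambled siRNA. On the log2 scale TGFb changed Hp by -1.10 ± 0.22 with Bmal1 siRNA (SE, adjusted p = 0.00426) and by -2.72 ± 0.22 with scrambled siRNA (adjusted p = 6.98e-07). The difference of these effects was 1.62 (95% interval 0.94 to 2.30, adjusted p = 0.00537). Under TGFb, Bmal1 siRNA left Hp higher by 1.01 ± 0.22 (adjusted p = 0.00643), and by 0.66, still called, without the second library with Bmal1 siRNA and TGFb. Under vehicle the change was -0.61 ± 0.22 and was not called (adjusted p = 0.148), although the groups did not overlap (exact permutation p = 0.1). It was called at an adjusted p of 0.0197 without the second library with Bmal1 siRNA and TGFb. The lowest Hp level, 0.11 FPKM, corresponds to about 3.94 fragments at the rough depth, so the ratio to vehicle is imprecise.

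Transferrin and ceruloplasmin handle iron, the first by carrying ferric iron in plasma and the second as a copper-bound oxidase that converts iron to the form transferrin binds. Trf (chr9:103204001-103230444, minus strand) was the most abundant member, at 47.77, 104.83 and 63.53 FPKM with Bmal1 siRNA and TGFb, against 205.67, 224.95 and 240.06 FPKM with Bmal1 siRNA and vehicle. With scrambled siRNA it was 40.48, 58.82 and 54.85 FPKM under TGFb, against 190.36, 202.45 and 210.14 FPKM under vehicle. Treated and vehicle libraries were well apart with both siRNAs, whereas the siRNA groups overlapped under each treatment. TGFb changed Trf by -1.69 ± 0.21 with Bmal1 siRNA (SE, adjusted p = 0.000201) and by -1.96 ± 0.21 with scrambled siRNA (adjusted p = 6.66e-06). The difference of the effects was 0.27 (95% interval -0.37 to 0.91, adjusted p = 0.588). It was -0.035 without the second library with Bmal1 siRNA and TGFb and 0.52 without the first. Under TGFb the siRNA change of 0.42 (95% interval -0.03 to 0.87, adjusted p = 0.163) was not called, and it was 0.68 (adjusted p = 0.0153) without the first of those libraries and 0.12 (adjusted p = 0.609) without the second. The gene model Gm20425 on the same strand covers 83.6% of the longest Trf transcript at 95% identity or more, so reads from the shared stretch cannot be told apart.

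Cp (chr3:19957054-20009145, plus strand) was the member whose TGFb effect was called with scrambled siRNA only. Its levels were 4.98, 7.44 and 5.34 FPKM with Bmal1 siRNA and TGFb, against 6.08, 6.16 and 6.05 FPKM with Bmal1 siRNA and vehicle. With scrambled siRNA they were 1.41, 1.62 and 1.71 FPKM under TGFb, against 4.77, 4.99 and 5.04 FPKM under vehicle. The 3 libraries with scrambled siRNA and TGFb were below all 9 others, while treated and vehicle libraries overlapped with Bmal1 siRNA. The mean under TGFb was 97.1% of the vehicle mean with Bmal1 siRNA and 32% of it with scrambled siRNA. The log2 change with TGFb was -0.05 ± 0.10 with Bmal1 siRNA (SE, adjusted p = 0.764, not called) and -1.20 ± 0.10 with scrambled siRNA (adjusted p = 1.08e-06). The difference of the effects was 1.15 (95% interval 0.83 to 1.47, adjusted p = 0.000314). Under TGFb, Bmal1 siRNA left Cp higher by 1.41 ± 0.10 (adjusted p = 2.10e-06), in all 3 libraries. Without the second library with Bmal1 siRNA and TGFb, the TGFb change with Bmal1 siRNA was -0.20 (adjusted p = 0.0423); leaving out the first gave 0.044 and leaving out replicate 3 gave 0.0016. Under vehicle Cp changed by 0.26 ± 0.10 and was not called (adjusted p = 0.182, exact permutation p = 0.1), and without that second library it was (adjusted p = 0.0413). Cp shares 108 exon bases with Hps3 on the opposite strand.

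Lipopolysaccharide-binding protein, the product of Lbp, passes bacterial lipopolysaccharide to CD14 for recognition by TLR4, and Saa3 encodes a serum amyloid A that is made largely outside the liver in mice. Lbp (chr2:158306493-158332852, plus strand) stood at 3.12, 10.77 and 4.97 FPKM with Bmal1 siRNA and TGFb, against 19.68, 21.78 and 25.17 FPKM with Bmal1 siRNA and vehicle. With scrambled siRNA Lbp was at 1.05, 2.40 and 2.16 FPKM under TGFb, against 13.61, 15.57 and 18.71 FPKM under vehicle. All 4 groups were separate, with Bmal1 siRNA above scrambled siRNA under both treatments. TGFb changed it by -1.80 ± 0.29 with Bmal1 siRNA (SE, adjusted p = 0.00111) and by -2.59 ± 0.29 with scrambled siRNA (adjusted p = 1.14e-05). Under TGFb the siRNA change was 1.24 ± 0.29 (adjusted p = 0.00939); it was 0.82 (adjusted p = 0.0165) without the second library with Bmal1 siRNA and TGFb, and the call was lost when only the 2 groups compared were fitted (adjusted p = 0.0576). Under vehicle it was 0.46 ± 0.29 (adjusted p = 0.377, not called). The difference of the TGFb effects was 0.78 (95% interval -0.12 to 1.68, adjusted p = 0.231), and it was 1.12 (adjusted p = 0.0423) without the first library with Bmal1 siRNA and TGFb and 0.37 (adjusted p = 0.406) without the second.

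Saa3 (chr7:46711998-46715700, minus strand) stood at 0.89, 4.04 and 2.42 FPKM with Bmal1 siRNA and TGFb, against 5.90, 7.06 and 9.70 FPKM with Bmal1 siRNA and vehicle. With scrambled siRNA it was 0.65, 1.44 and 1.22 FPKM under TGFb, against 6.29, 10.01 and 7.5 FPKM under vehicle. Every treated library was below every vehicle library of the same siRNA, and the siRNA groups overlapped under each treatment. The TGFb changes were -1.40 ± 0.29 with Bmal1 siRNA (SE, adjusted p = 0.00476) and -2.08 ± 0.29 with scrambled siRNA (adjusted p = 6.33e-05). The siRNA change under TGFb, 0.62 (95% interval -0.0024 to 1.25, adjusted p = 0.136), was not called, nor was the difference of the TGFb effects, 0.69 (95% interval -0.20 to 1.57, adjusted p = 0.286). Without the first library with Bmal1 siRNA and TGFb these values were 1.0 (adjusted p = 0.00702) and 1.07 (adjusted p = 0.0316), and both were called. Without the second they were 0.29 (adjusted p = 0.464) and 0.36 (adjusted p = 0.522). Under vehicle the siRNA change of -0.07 (adjusted p = 0.914) was 0.077 without the first library with Bmal1 siRNA and vehicle and 0.096 without the second with scrambled siRNA and vehicle. No stretch of Saa3 of 100 bases or more was at least 95% identical to another serum amyloid A gene. Near-identical stretches in unrelated genes covered 137 bases, or 6.23%, of the longest Saa3 transcript.

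Complement component 3, encoded by C3, is the protein on which all complement pathways converge. C3 (chr17:57203970-57228136, minus strand) stood at 16.41, 45.93 and 25.59 FPKM with Bmal1 siRNA and TGFb, against 71.31, 78.96 and 81.93 FPKM with Bmal1 siRNA and vehicle. In scrambled siRNA libraries C3 was at 14.95, 19.35 and 20.35 FPKM under TGFb, against 50.77, 70.10 and 74.86 FPKM under vehicle. As with Saa3 and Trf, treatment separated the libraries and the siRNAs overlapped under each treatment. TGFb changed C3 by -1.49 ± 0.26 with Bmal1 siRNA (SE, adjusted p = 0.00188) and by -1.78 ± 0.26 with scrambled siRNA (adjusted p = 0.000112). The siRNA change under TGFb was 0.55 (95% interval -0.02 to 1.12, adjusted p = 0.148) and was not called; without the first library with Bmal1 siRNA and TGFb it was 0.89 (adjusted p = 0.00877), and without the second 0.17 (adjusted p = 0.552). The difference of the TGFb effects was 0.29 (95% interval -0.52 to 1.09, adjusted p = 0.650), and it was -0.086 without the second of those libraries and 0.63 without the first.

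Fetuin-A, encoded by Ahsg, is a plasma glycoprotein that keeps calcium phosphate from precipitating and, unlike most members, falls in plasma during inflammation. Ahsg (chr16:22891277-22899449, plus strand) stood at 0.26, 2.17 and 1.17 FPKM with Bmal1 siRNA and TGFb, against 3.04, 3.45 and 3.34 FPKM with Bmal1 siRNA and vehicle. With scrambled siRNA it was 0.08, 0.05 and 0.08 FPKM under TGFb, against 2.34, 2.80 and 2.62 FPKM under vehicle. The libraries with scrambled siRNA and TGFb were again the lowest, and the 4 groups did not overlap. The mean under TGFb was 36.6% of the vehicle mean with Bmal1 siRNA and 2.71% of it with scrambled siRNA, where 0.05 FPKM corresponds to about 2.0 fragments. On the log2 scale TGFb changed Ahsg by -1.06 ± 0.23 with Bmal1 siRNA (SE, adjusted p = 0.00574) and by -1.74 ± 0.23 with scrambled siRNA (adjusted p = 3.53e-05); the change with Bmal1 siRNA was -0.70, still called, without the first library of that group with TGFb. Under TGFb the siRNA change was 0.94 ± 0.23 (adjusted p = 0.00994), with the call lost when only the 2 groups compared were fitted (adjusted p = 0.0647). With each library left out in turn this siRNA change ran from 0.63 to 1.29 and stayed called. Under vehicle it was 0.25 ± 0.23 (adjusted p = 0.523, not called). The difference of the TGFb effects was 0.69 (95% interval -0.0023 to 1.38, adjusted p = 0.171). It was 1.04 (adjusted p = 0.00176) without the first library with Bmal1 siRNA and TGFb, 0.37 (adjusted p = 0.273) without the second, and 2.25 (adjusted p = 0.0341) with a pseudocount of 0.1 in place of 1. Ahsg shares 62 exon bases with the antisense gene Gm30505, and no source used here says whether counting used strand.

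Lipocalin-2, the product of Lcn2, binds bacterial iron carriers and is among the most inducible acute-phase proteins in mouse liver. Lcn2 (chr2:32384633-32388252, minus strand) was close to the detection limit, at 0.33, 0.37 and 0.24 FPKM with Bmal1 siRNA and TGFb, against 0.63, 0.62 and 0.43 FPKM with Bmal1 siRNA and vehicle. With scrambled siRNA it was 0.24, 0.33 and 0.38 FPKM under TGFb, against 0.28, 1.01 and 0.77 FPKM under vehicle. The treated libraries were below the vehicle libraries with Bmal1 siRNA (exact permutation p = 0.1) and overlapped them with scrambled siRNA (exact permutation p = 0.3). The siRNA groups overlapped under each treatment. About 8.8 fragments lie behind the lowest value.

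**Figure D2:**
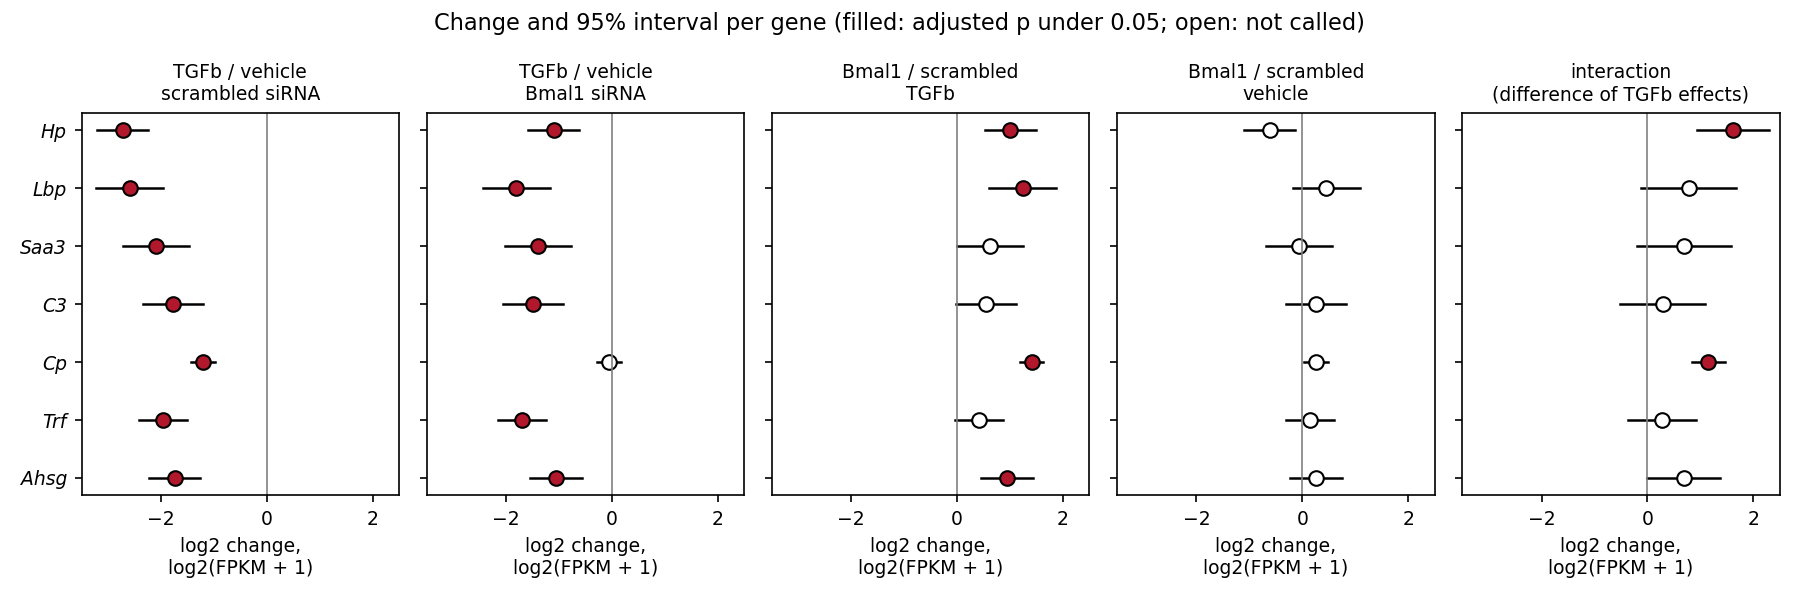
Log2 change of the 7 tested members on the log2(FPKM + 1) scale (horizontal axis) for each comparison, with 95% intervals; filled points had an adjusted p under 0.05. All 7 points are filled and below 0 for TGFb with scrambled siRNA, Cp alone is open for TGFb with Bmal1 siRNA, and only Hp and Cp are filled in the interaction panel.

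The members also differed in level. In libraries with scrambled siRNA and vehicle, Trf ranked 320 by mean FPKM among the 14665 genes detected there, C3 1309 and Lbp 4893, while Saa3, Hp and Cp ranked 7134, 7682 and 8367. Ahsg ranked 9541 and Lcn2 10910. Saa3, Hp and Cp were neighbours in this order at means of 7.93 ± 1.90, 6.53 ± 0.81 and 4.93 ± 0.14 FPKM (SD, n = 3). The libraries of Saa3 and Hp overlapped, and those of Cp lay below those of both. The summed level of the 8 members was 74.4 to 178 FPKM with Bmal1 siRNA and TGFb and 59.0 to 84.1 FPKM with scrambled siRNA and TGFb. Under vehicle it was 317 to 371 FPKM with Bmal1 siRNA and 276 to 326 FPKM with scrambled siRNA. Trf made up 58.8% to 69.9% of that sum in each library, so the sum mostly shows Trf.

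Markers of other cells gave the following values. Hnf4a, the hepatocyte factor, was at most 0.01 FPKM in any library, and Apoa1, Apob, Cyp2e1 and Cps1 were under 0.5 FPKM in all 12. Of 12 hepatocyte markers 6 had a row, and only Ass1, an enzyme of arginine synthesis that many cells express, was tested; it was higher with TGFb by 0.87 with Bmal1 siRNA and by 2.31 with scrambled siRNA. Of 8 leukocyte markers with a row, 5 were under 0.5 FPKM in every library, and of 8 endothelial markers 6 were. In each of these lists 2 markers were tested. With scrambled siRNA, TGFb raised 1 leukocyte marker by 0.88 and lowered 1 by 0.45. It lowered 1 of the 2 endothelial markers, whose changes were -0.49 and -0.15. With Bmal1 siRNA 0 were called in either list, or 1 endothelial marker lower without the second library of that group with TGFb. Of 14 stellate markers 12 had a row and 10 were tested. Lrat and Reln had no row, so their levels are not known here. Ngfr and Hgf were under 0.5 FPKM in every library, and the mean of Vim was 970.5 to 1065 FPKM over the groups. With scrambled siRNA, TGFb raised 4 of the 10, Acta2 by 2.12, and lowered 2, with Pdgfra, a receptor for platelet-derived growth factor, at -1.91. Under 3 other scalings TGFb raised 6 of the 10. With Bmal1 siRNA it raised 4 and lowered 1, Pdgfra at -0.99. Of 8 epithelial markers, Krt18, Epcam and Cdh1 were under 0.5 FPKM in every library and 5 were tested. TGFb raised 3 and lowered 2 of these 5 with scrambled siRNA. It raised 1 and lowered 1 with Bmal1 siRNA, or 2 and 2 without the second library of that group with TGFb. The epithelial list summed to 106 to 189.8 FPKM with Bmal1 siRNA and TGFb and to 212 to 231.5 FPKM with scrambled siRNA and TGFb. Under vehicle it summed to 82.4 to 93.8 FPKM with Bmal1 siRNA and to 77.8 to 89.2 FPKM with scrambled siRNA.

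Most mesothelial markers fell with TGFb, as the members did. Mesothelium is the layer that covers the liver. With scrambled siRNA, TGFb lowered 7 of 8 tested mesothelial markers, among them Upk3b with a log2 change of -2.13, Gpm6a with -2.09 and Cldn15 with -2.05, and Msln was higher by 0.55. With Bmal1 siRNA it lowered 7 of 8. The median log2 change was -0.80 with Bmal1 siRNA and -0.60 with scrambled siRNA, against -1.40 and -1.96 for the members. Bmal1 siRNA left 3 of the 8 higher and 0 lower under TGFb, and the interaction was called for 0. The siRNA counts were 2 higher and 1 lower after scaling to equal totals and without the second library with Bmal1 siRNA and TGFb. Without the first they were 4 higher and 0 lower. That interaction count became 2 positive without the first library with Bmal1 siRNA and TGFb and 1 negative without the second. Summed, the 9 markers came to 158 to 255 FPKM with Bmal1 siRNA and TGFb and 159 to 202 FPKM with scrambled siRNA and TGFb. Under vehicle the sums were 419.7 to 455 FPKM with Bmal1 siRNA and 378 to 436 FPKM with scrambled siRNA. Muc16 was under 0.5 FPKM in every library. The part of these markers in the fall of the members was not tested, and in bulk RNA fewer cells of a type and less RNA per cell cannot be told apart.

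Promoter sequence was available from RefSeq (GRCm38.p6), from 250 bases before to 50 after a start site, for 5 of the 8 members in 6 windows; Hp, Lbp and Trf had none. Each window was searched on both strands for the E-box CACGTG, the STAT motif TTCNNNGAA, the C/EBP motif TTGCNNAA, the kappaB motif and the Smad box GTCTAGAC. The C/EBP motif was in 5 of the 6 windows and in all 5 members, and in 10.8% of 32851 windows of the same length. This motif was written down after the windows had been read, so the count is a description and no test. None of the 6 windows held the other motifs, so no matches of different motifs overlapped there. Of all windows, 7.15% (E-box), 8.3% (STAT), 8.46% (kappaB) and 0.213% (Smad box) held them. Counted from the start site, the matches began at -99 in Saa3, -45 in C3, -70 in Cp, -32 in Ahsg and -216 in Lcn2. The matches in Cp, Ahsg and Lcn2 lie inside the gene spans given above, which begin before those RefSeq start sites. The stretches printed here run from -120 to -25 relative to the RefSeq start site, in the direction of transcription, with the C/EBP match in capitals. They are shown for the 3 members with a window that were called lower with TGFb under both siRNAs. They lie at chr7:46715701-46715796 (minus strand) for Saa3, chr17:57228161-57228256 (minus strand) for C3 and chr16:22891895-22891990 (plus strand) for Ahsg. The Ahsg stretch is thus inside the gene span given above and not upstream of it.
Saa3: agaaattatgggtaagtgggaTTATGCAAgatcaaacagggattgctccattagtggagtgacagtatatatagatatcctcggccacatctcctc
C3: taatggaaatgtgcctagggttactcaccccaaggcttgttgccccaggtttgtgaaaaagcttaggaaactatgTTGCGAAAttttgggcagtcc
Ahsg: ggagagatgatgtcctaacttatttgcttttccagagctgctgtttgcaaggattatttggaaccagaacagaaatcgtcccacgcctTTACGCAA
A match in letters is not a site of binding, and a window without one says nothing of the factor.

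Genes of C/EBP, interleukin-6 and STAT3 signalling were measured beside them. With scrambled siRNA, TGFb lowered 11 of 20 tested genes of this list and raised 2, or 10 and 3 under 3 other scalings. Cebpd, a C/EBP factor of the acute phase, fell by 1.38, Lifr, the leukaemia inhibitory factor receptor, by 1.15, and Socs3, a feedback inhibitor of STAT3 signalling, by 0.91 on the log2 scale. Cebpd averaged 13.8 ± 2.5 FPKM with Bmal1 siRNA and TGFb, 8.76 ± 1.1 FPKM with scrambled siRNA and TGFb, 18.9 ± 0.35 FPKM with Bmal1 siRNA and vehicle and 24.4 ± 2.2 FPKM with scrambled siRNA and vehicle (SD, n = 3 each). With Bmal1 siRNA, TGFb lowered 6 and raised 1 of the 20, and lowered 4 and raised 0 without the first library of that group with TGFb. Under TGFb, Bmal1 siRNA left 4 higher, with Cebpd at 0.59 and Lifr at 0.59, and 1 lower, Il11 at -0.32. Its 1 call under vehicle was Cebpb, another C/EBP factor, at -0.38 (adjusted p = 0.0253), joined by Cebpd at -0.35 (adjusted p = 0.0376) without the second library with Bmal1 siRNA and TGFb. The interaction was called for 5 of the 20: Cebpd at 0.94, Socs3 at 0.60, Lifr at 0.56, Cebpb at 0.36 and Il11 at -0.41. Without the second library with Bmal1 siRNA and TGFb, the interaction of Lifr (adjusted p = 0.0613) and Il11 (adjusted p = 0.0676) was not called, nor the siRNA change of Il11 under TGFb (adjusted p = 0.0531). The interaction of Il11 was not called without the first either (adjusted p = 0.0512). After scaling to equal totals the interactions of Lifr and Il11 had adjusted p-values of 0.0821 and 0.0508. Il6 itself averaged 0.627 to 1.05 FPKM over the groups and was not called in any comparison.

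The interleukin-1 and NF-kappaB list held genes that rose as well as genes that fell. TGFb raised 7 and lowered 3 of its 20 tested genes with scrambled siRNA. Nfkbiz, an NF-kappaB cofactor, rose by 0.79, Zc3h12a, an RNase that limits inflammation, by 0.51 and Irak2, an interleukin-1 receptor kinase, by 0.51, and Tnfrsf1a, a TNF receptor, fell by 0.60 on the log2 scale. With Bmal1 siRNA, TGFb raised 1 and lowered 4 of them, and raised 0 and lowered 2 without the first library with Bmal1 siRNA and TGFb. Under TGFb, Bmal1 siRNA left 1 higher and 7 lower, under vehicle 0 were called, and the interaction was called positive for 1 and negative for 6. Without the first library with Bmal1 siRNA and TGFb, the siRNA counts under TGFb were 1 higher and 5 lower. Without the second they were 2 higher and 6 lower. Il1b and Tnf were under 0.5 FPKM in every library.

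Other acute-phase genes mostly had low levels or no row. Of 29 listed, 17 had a row, 12 of these were under 0.5 FPKM in every library, and 4 were tested. All 4 fell with TGFb under both siRNAs. The metallothioneins Mt1 and Mt2, which bind zinc and copper, changed by -0.76 and -0.88 with Bmal1 siRNA and by -1.46 and -1.33 with scrambled siRNA. Slpi, a leukocyte protease inhibitor, changed by -0.75 with Bmal1 siRNA and by -1.33 with scrambled siRNA, and the pentraxin Ptx3 by -0.34 with Bmal1 siRNA and by -0.60 with scrambled siRNA. Under TGFb all 4 were higher with Bmal1 siRNA, by 0.35 to 0.67, and 3 of them without the second library with Bmal1 siRNA and TGFb, where Mt2 was not called (adjusted p = 0.0714). Their interaction was called for Mt1 at 0.70 and Slpi at 0.59, Slpi no longer under quantile normalization (adjusted p = 0.0530), and for 3 of the 4 without the first library with Bmal1 siRNA and TGFb. Under vehicle none of the 4 was called. Among 28 other plasma protein genes 5 were tested. TGFb lowered 3 of them with Bmal1 siRNA and 4 with scrambled siRNA, including Apoe, an apolipoprotein, with changes of -1.06 with Bmal1 siRNA and -1.26 with scrambled siRNA. Fetub, a relative of Ahsg, changed by -0.69 with Bmal1 siRNA and -0.91 with scrambled siRNA. Bmal1 siRNA left Apoe, Fetub and Rbp4 higher under TGFb, Fetub no longer under quantile normalization (adjusted p = 0.121) or without the second library with Bmal1 siRNA and TGFb (adjusted p = 0.147), with 0 calls under vehicle or for the interaction.

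Complement genes fell along with C3. TGFb lowered 7 of 9 tested genes with Bmal1 siRNA and 8 of 9 with scrambled siRNA. Masp1, a protease of the lectin pathway, changed by -0.69 with Bmal1 siRNA and -1.89 with scrambled siRNA, and C1rl, a relative of the protease C1r, by -0.95 with Bmal1 siRNA and -1.60 with scrambled siRNA. Clu, the chaperone clusterin, changed by -1.17 with Bmal1 siRNA and -1.45 with scrambled siRNA. Under TGFb, Bmal1 siRNA left 4 of the 9 higher, among them Masp1 by 1.13, C1rl by 0.70 and C1ra by 0.42. Without the first library with Bmal1 siRNA and TGFb 6 of the 9 were called. Without the second 2 were, and C1ra no longer was (adjusted p = 0.0922). Quantile normalization also left C1ra uncalled (adjusted p = 0.0639). The interaction was called for Masp1 at 1.19 (adjusted p = 0.00158) and C1rl at 0.65 (adjusted p = 0.0440), C1rl no longer after scaling to equal totals (adjusted p = 0.0572), and under vehicle none was called. Without the first library with Bmal1 siRNA and TGFb the interaction was called for 4 of the 9. C2, Cfb and Cfi were under 0.5 FPKM in every library.

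**Figure D3:**
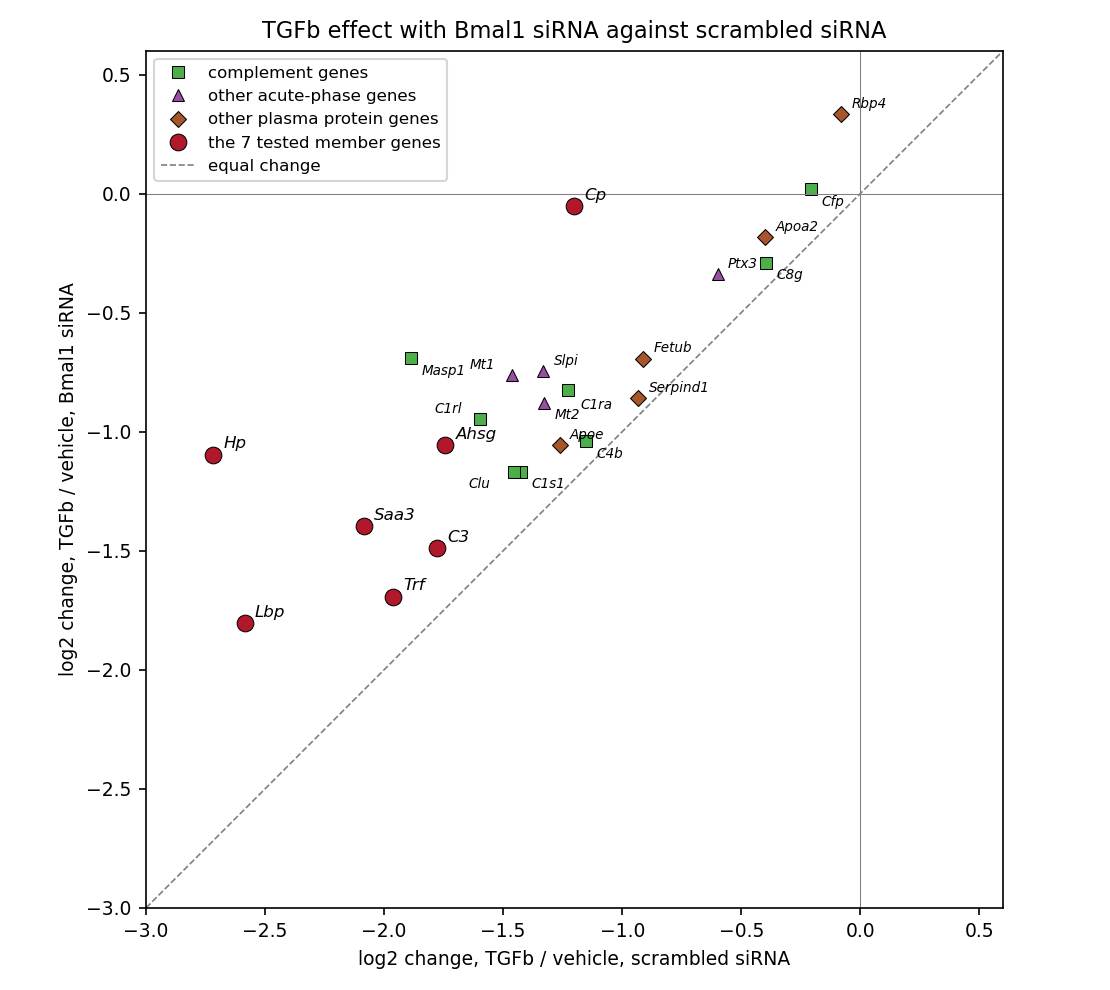
Log2 change with TGFb with Bmal1 siRNA (vertical axis) against that with scrambled siRNA (horizontal axis) for tested members, complement, other acute-phase and other plasma protein genes; the dashed line marks equal change. Each point drawn lies above the line, Hp and Cp farthest among the members, at -1.10 against -2.72 and at -0.05 against -1.20.

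Partners in lipopolysaccharide sensing changed in both directions. Cd14, to which LBP hands lipopolysaccharide, averaged 4.66 FPKM with Bmal1 siRNA and TGFb, 4.80 FPKM with scrambled siRNA and TGFb, 4.66 FPKM with Bmal1 siRNA and vehicle and 7.81 FPKM with scrambled siRNA and vehicle. TGFb lowered it by 0.60 on the log2 scale with scrambled siRNA, and Bmal1 siRNA lowered it by 0.63 under vehicle (adjusted p = 0.0253). Mouse Tlr4 averaged 0.627 FPKM with scrambled siRNA and TGFb against 1.23 FPKM with scrambled siRNA and vehicle, a log2 change of -0.46, and the human TLR4 that the line carries was not measured here. Tlr2, a receptor for bacterial lipoproteins, rose by 0.65 with TGFb and scrambled siRNA. In all, TGFb raised 1 and lowered 5 of 7 tested genes with scrambled siRNA, and with Bmal1 siRNA it lowered 1. Under TGFb, Bmal1 siRNA left Tlr4 higher by 0.37 and Tlr2 lower by 0.53. The interaction was called for Cd14 at 0.60 and Tlr2 at -0.70.

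Iron and copper genes other than Trf and Cp changed by -0.55 to 0.38 with TGFb and scrambled siRNA. Of 19 tested, TGFb raised 3 and lowered 3 with Bmal1 siRNA and raised 1 and lowered 7 with scrambled siRNA. Under 3 other scalings the number lowered with scrambled siRNA was 5 to 6. Fth1, the ferritin heavy chain, changed by -0.24 with Bmal1 siRNA, a change not called without the first library with Bmal1 siRNA and TGFb (adjusted p = 0.141), and by -0.55 with scrambled siRNA. Tfrc, the transferrin receptor, was not called in any comparison, with TGFb changes of -0.19 with Bmal1 siRNA and -0.11 with scrambled siRNA; without the first library with Bmal1 siRNA and TGFb the change with Bmal1 siRNA was -0.29 and was called (adjusted p = 0.0363). Slc40a1, the iron exporter ferroportin with which ceruloplasmin works, was higher by 0.46 (adjusted p = 0.0007) with Bmal1 siRNA under TGFb, as was Steap2, a metalloreductase, by 0.47. In that comparison 5 genes were higher and 1 lower, or 4 and 2 under quantile normalization. Under vehicle 0 were called, against 1 higher and 2 lower without the second library with Bmal1 siRNA and TGFb. The interaction was called for 3 of the 19, with Steap1 at 0.67, for 5 without the first library with Bmal1 siRNA and TGFb and for 2 without the second. Among receptors for the members, Slc22a17, which binds lipocalin-2, fell by 0.33 with TGFb and scrambled siRNA, Lrp2 rose by 0.30, and C3ar1, Cr2 and Itgam, receptors for C3 fragments, were under 0.5 FPKM in every library.

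Liver transcription factors included 3 tested genes of 11. Foxa2, a forkhead factor of liver and gut, averaged 31.2 FPKM with Bmal1 siRNA and TGFb, 17.4 FPKM with scrambled siRNA and TGFb, 29.5 FPKM with Bmal1 siRNA and vehicle and 31.2 FPKM with scrambled siRNA and vehicle. TGFb changed it by 0.08 with Bmal1 siRNA (adjusted p = 0.535, not called) and by -0.81 with scrambled siRNA (adjusted p = 5.64e-06), and the difference was 0.89 (adjusted p = 0.000437). Nr1h4, the bile acid receptor FXR, changed by -0.43 with Bmal1 siRNA and -0.93 with scrambled siRNA, with a difference of 0.50 (adjusted p = 0.0272). Bmal1 siRNA left both higher under TGFb and neither was called under vehicle. Cebpa, also expressed in fat cells, was higher by 0.25 with TGFb and Bmal1 siRNA (adjusted p = 0.0407), and was not called without the first library of that group (adjusted p = 0.112).

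**Figure D4:**
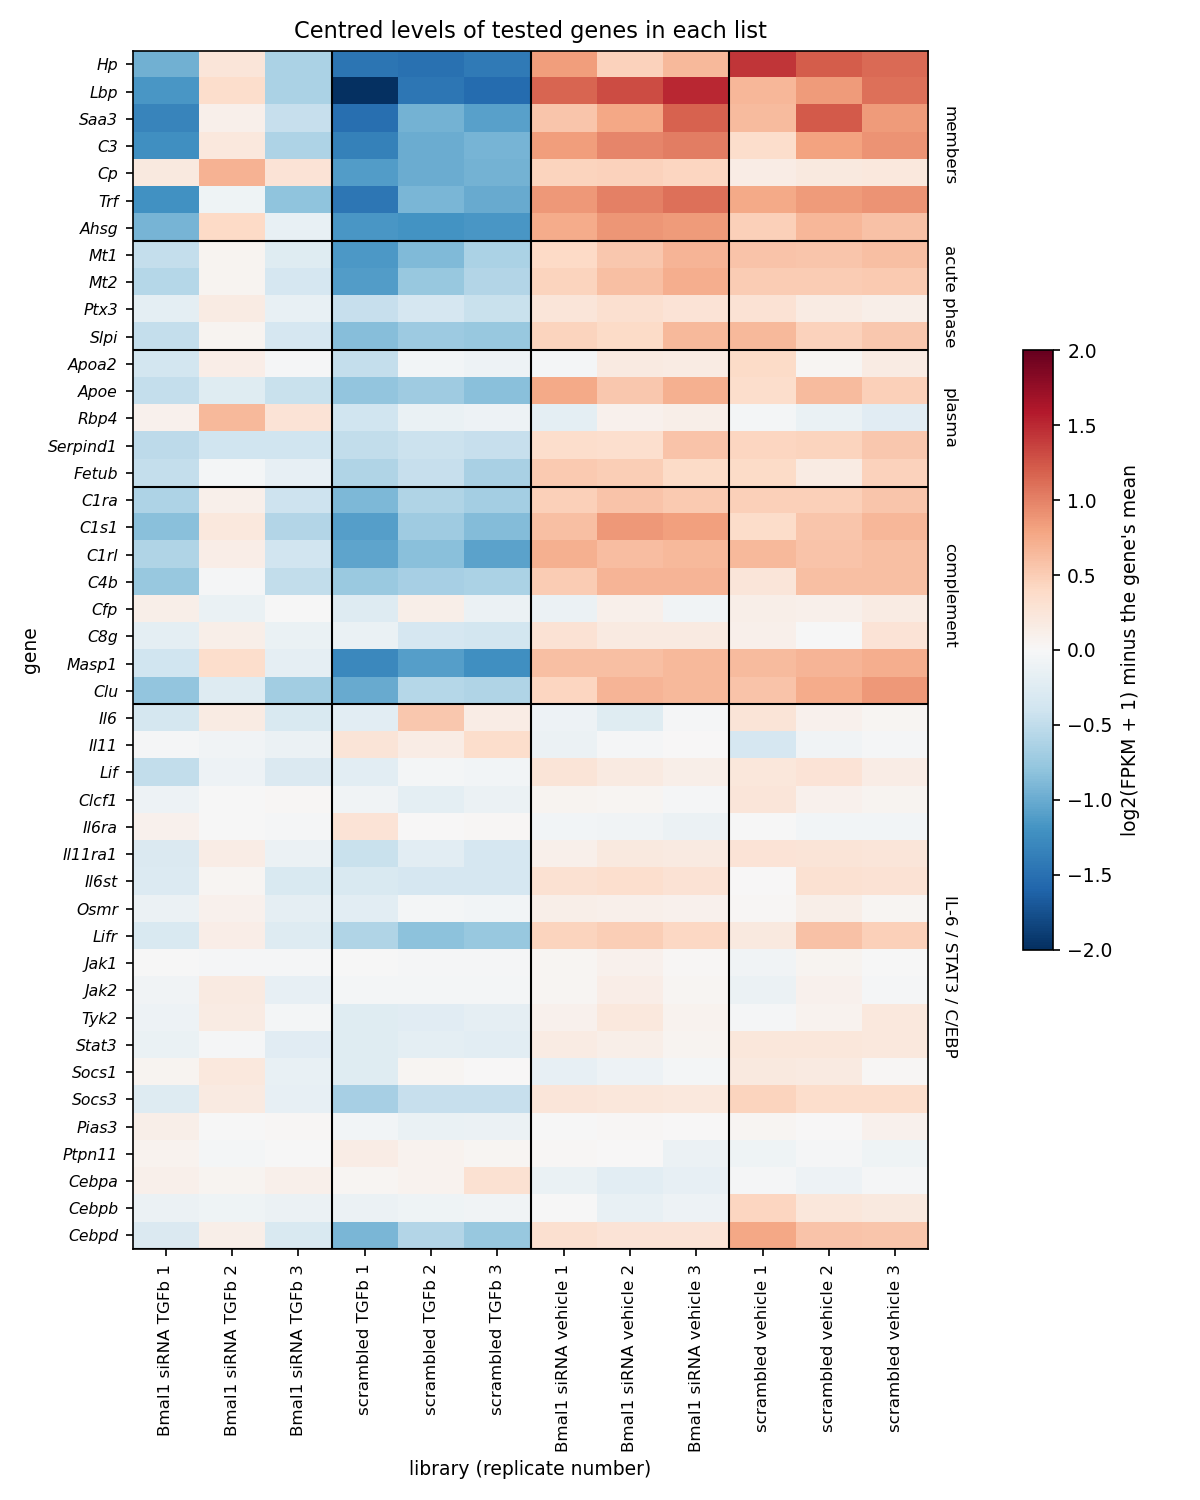
Level of tested genes of 5 lists (rows) in the 12 libraries (columns), as log2(FPKM + 1) minus the gene's mean over all libraries; red is above and blue below the mean, with the scale cut at 2. In the first 3 columns, Bmal1 siRNA with TGFb, the second library is nearer to the vehicle libraries than the other two for Hp, Lbp, Saa3, C3, Trf and Ahsg.

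The genes whose pattern was most like each member's were found by the root mean square difference of centred log2 levels over the 12 libraries, among 10962 genes; all values share these libraries. Trf was nearest to Upk3b (0.139), Id3 (0.147) and Cldn15 (0.15), of which Upk3b and Cldn15 are mesothelial markers. C3 was nearest to Smtnl2 (0.116), Car9 (0.141) and Ogn (0.146). Saa3 was nearest to Smtnl2 (0.201), C3 (0.203) and Trf (0.204), the only case with other members among the first 3. Among the 3 genes nearest to Lbp were Dcn (0.227) and Clca3a1 (0.239). Hp was nearest to Vstm2a (0.121), Gdf10 (0.208) and Rasl11a (0.293), and Ahsg to Efemp1 (0.147), Htra3 (0.157) and Padi3 (0.161). Cp was nearest to Elmo1 (0.129), Npy4r (0.171) and Plat (0.225), and its nearest member, Ahsg, was at 0.461.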

How the data were processed

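Total RNA of 12 libraries was sequenced. The authors deposited 1 table of FPKM per gene, per the file headers, rounded to 2 decimals. RSEM, DESeq2, Bowtie2 2.2.5, HISAT2 2.0.4 and the build mm10 are named in the submitters' processing notes without their roles; no source used here gives annotation, strand use or read numbers. FPKM is scaled to library size, so changes in abundant genes shift all others, and whole reads could not be recovered. Per the labels' protocols, low-integrity RNA was discarded and 1 of 2 extraction kits was used, which per sample is not said.

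Of 16290 lines, 555 without an identifier (1.304% to 1.464% of FPKM) and 15 repeats were left out. Symbols came from GENCODE M21, which matched 15694 of 15720 identifiers. limma 3.58.1 in R 4.3.3 fitted group means over all 12 libraries with an intensity trend, tested on simulated data. The simulated libraries were independent, with the same spread per gene in every group, so a library order shared by many genes was not covered. Adjusted p-values are from the limma fit over 11208 genes. Members and 15 gene lists were chosen with earlier results of these data known. Besides members, up to 4 called genes of a list with the largest change were named, or 2 with the highest level, and any receptor, lipopolysaccharide or iron partner; Il6, Msln, Vim, Pmepa1, Acta2 and genes named as low were chosen after their values were seen. Values of 1 complement gene are not reported or drawn here; it stays in the counts. Same-numbered libraries deviated with r of -0.161 to 0.475, above 0.1 in 8 of 18 pairs, against 7 of 36 differently numbered pairs. Between Bmal1 siRNA with vehicle and scrambled siRNA with TGFb all 3 were above 0.1, at 0.419, 0.222 and 0.203. These groups meet only in the interaction. In no pair of groups compared directly were all 3 above 0.1, so the numbers were not taken as pairing the libraries. Alternatives covered pseudocounts, filters, scaling, the replicate block, the groups fitted, limma settings and each library left out.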

Additional observations from a re-analysis of the deposited data

Results flagged for a closer look

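For 2 members the effect of TGFb differed between the siRNAs by the test of the difference itself. Cp had an interaction of 1.15 log2 units (adjusted p = 0.000314, limma), and Hp one of 1.62 (adjusted p = 0.00537). With each library left out in turn these ran from 0.998 to 1.25 for Cp and from 1.27 to 1.88 for Hp, and both stayed called in all 12 fits.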

How the results depend on the processing

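Over 24 alternative settings, 798 of 828 values of the members, or 96.4%, kept their call and direction, 21 gained a call, 2 lost one and 7 changed sign, each of these 7 from a value that was not called. The share kept includes values that stayed uncalled. It also includes fits without a library of neither group compared, where the log2 change could not move. Members called with TGFb stayed at 6 to 7 with scrambled siRNA and 5 to 7 with Bmal1 siRNA. The lowest counts came with a filter at a mean of 2 FPKM, where Ahsg (mean 1.78 FPKM) was not tested. No tested member lost its call in these TGFb comparisons. With 1 library left out, members called ran from 7 to 7 and from 6 to 7 for these, from 4 to 7 for Bmal1 siRNA under TGFb, from 0 to 2 under vehicle and from 2 to 5 for the interaction; 7 and 5 are without the first library with Bmal1 siRNA and TGFb, 2 without the second. Fitting the compared groups alone called 2 members under TGFb and 1 under vehicle, where array weights called 2 and leaving out both second TGFb libraries 2. Changed signs, with 1 library left out, were those of Cp for TGFb with Bmal1 siRNA (0.044 and 0.0016, range -0.20 to 0.044), Saa3 under vehicle (0.077 and 0.096, range -0.24 to 0.096), Trf for the interaction (-0.035, range -0.035 to 0.52) and C3 for it (-0.086, range -0.086 to 0.63, and -0.039 without both second TGFb libraries). All genes called for the siRNA under vehicle, 74, were 7 without a filter, 540 with the replicate block, 245 with the compared groups alone, 1490 with array weights, 414 without both second TGFb libraries and 2 to 472 with 1 library left out. Under TGFb, 2596 became 1565 with the compared groups alone, 4914 with array weights, 1489 without both second TGFb libraries and 1850 to 2921 with 1 library left out. For TGFb with Bmal1 siRNA, 2128 became 5513 with array weights, 3246 without both second TGFb libraries and 1171 to 3265 with 1 library left out. For the interaction, 1612 became 3723 with array weights and 991 to 1872 with 1 library left out, and for TGFb with scrambled siRNA 5105 became 4385 to 5468. Each gene had 1 estimate of spread shared by all groups. Leaving out a library outside a comparison therefore moved its adjusted p-values and not its log2 changes. Hp under vehicle stayed at -0.61 without the second library with Bmal1 siRNA and TGFb, with an adjusted p (limma) of 0.0197 against 0.148. The part of this in the shifts above was not tested, and the array weights did not fully converge. With the replicate block, whose numbers were not taken as pairing the libraries (5 of 12 were closest to one of their own number), C3 (0.55, adjusted p = 0.0466) and Saa3 (0.62, adjusted p = 0.0259) were called higher with Bmal1 siRNA under TGFb, and no other member's call changed. Depth limits Hp, Ahsg and Lcn2, whose lowest values rest on a few fragments.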
